A study of Mus musculus with 10 samples.

Results

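The 36 genes described here are autism risk genes that do not belong to the CHD family of chromatin remodelers: Adnp, Ank2, Ank3, Arid1b, Ash1l, Asxl3, Cic, Cnot3, Cul3, Ddx3x, Dscam, Dyrk1a, Foxp1, Gigyf1, Gigyf2, Ilf2, Katnal2, Kdm5b, Kdm6b, Mbd5, Med13l, Myt1l, Naa15, Pogz, Setd2, Setd5, Shank2, Shank3, Spast, Tcf20, Tcf4, Tnrc6b, Trip12, Tsc1, Tsc2 and Wac. They were chosen by gene symbol from 23235 symbols, and all 36 were found in both expression tables. The question was whether a lower level of Chd8, itself an autism risk gene, goes with other levels of these genes. The data are RNA sequencing values of mouse cortical cells. Radial glia of embryonic day 13 cortex received, by electroporation in utero, a control hairpin or a Chd8 shRNA, a short hairpin RNA that lowers the level of its target transcript. GFP-positive cells were sorted at embryonic day 15, and each library came from the pooled cortices of 3 to 5 embryos. The 10 libraries fall into 2 sets. The new set has 3 control and 3 knockdown libraries (replicates 10, 11 and 12) in the table named for shRNA1. The first set has 2 control and 2 knockdown libraries (replicates 1 and 2) in the table named for shRNA2. The control libraries are cells electroporated in the same way with the control shRNA, and no strain, allele or sex is given in the labels. The shRNA, the set and the table change together, so their parts in a difference between sets cannot be told apart. The electroporated progenitors and the neurons born from them after the injection are sorted together, so in these bulk samples fewer cells of a type and less RNA per cell cannot be told apart.

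Chd8 encodes an ATP-dependent chromatin remodeler that binds near the start sites of many genes, and loss of a single copy is among the best known genetic causes of autism. Many autism risk genes encode proteins that act in the nucleus on chromatin and transcription, and others act in RNA metabolism, protein turnover, growth signalling, cell adhesion or the synapse. In the embryonic cortex radial glia divide next to the ventricle, give rise to intermediate progenitors and neurons, and most of the nuclear risk genes are active in these cells before synapses form.

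Levels are FPKM, fragment numbers divided by transcript length and library total, as the authors deposited them. Changes are log2 fold changes of FPKM + 1, knockdown minus control within a table, with their standard error (SE). This scale understates the change of low genes. A gene is called changed where its p from limma, adjusted by the Benjamini-Hochberg method over all genes tested in the comparison, was under 0.05. A table's test took in genes averaging 1 FPKM or more, which kept 35 of the 36 genes in the new set (not Shank3) and 34 in the first set (not Shank2 or Shank3). In sentences that list libraries, values follow the order of the replicate numbers.

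The libraries of the sets differed in their low values. Absolute depth is unknown because the tables hold no counts. A relative depth was estimated from genes above 0 and under 0.3 FPKM in both a library and the first control library of its set. It is the most common ratio of the FPKM in that control library to the FPKM in the library. This relative depth was 0.953 to 1.39 in the new set and 1.22 in the other first-set control library. It was 0.525 and 0.529 in the first-set knockdown libraries. Both first-set knockdown libraries stood apart: 80.9% and 78.9% of genes were above 0.1 FPKM in them, against 58.8% to 61.6% in the other 8 libraries. Of 1118 olfactory receptor genes, which cortical cells are not known for, 54.8% and 48.4% were above 0.1 FPKM in these libraries and at most 2.15% in any other. Their mean was 1.39 and 0.993 FPKM in these libraries and at most 0.0217 FPKM in any other. The summed FPKM of the 36 genes was 852 to 917 in new-set libraries, 1319 and 1283 in first-set control libraries, and 823 and 835 in first-set knockdown libraries. Every first-set result rests on these knockdown libraries, since the set has no others, and the part of their depth in those results was not tested.

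Chd8, the shRNA target, was lower in both sets. It stood at 3.59, 3.3 and 4.02 FPKM in the control libraries and 2.09, 1.84 and 1.92 FPKM in the knockdown libraries of the new set. First-set libraries held 12.4 and 13.8 FPKM in the control libraries and 8.55 and 9.23 FPKM in the knockdown libraries. The groups did not overlap in either set. The knockdown mean was 53.6% of control in the new set, a log2 fold change of −0.65 (SE 0.117, adjusted p = 0.0213). It was 68% of control in the first set, where the change of −0.51 (SE 0.233, adjusted p = 0.152) was not called. The joined fit of both sets gave −0.58 (SE 0.103, adjusted p = 0.00285), and an exact two-sided permutation test within sets gave p = 0.0167, the smallest that 120 regroupings allow. Within the new set the exact permutation p was 0.1 and within the first set 0.333, each the smallest possible. The new-set call was lost without control 10 (adjusted p = 0.0603), control 12 (0.0648), knockdown 10 (0.059), knockdown 11 (0.0829) or knockdown 12 (0.053).

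New-set calls were few. Setd5, which encodes a SET domain protein of chromatin, fell, and the other 34 tested genes were not called in either direction. This is 1 of 35 (2.86%), and 8.99% of all 11291 genes tested were called in this comparison, 5.15% lower and 3.84% higher. No further gene of the 35 had an unadjusted p under 0.05, where 3389 of all 11291 genes tested had one. Some uncalled genes had knockdown means well under control, among them Gigyf1 at 55.2%, Cul3 at 60.2%, Cnot3 at 75.3% and Adnp at 77.4% of the control mean. For Cul3 and Adnp these percentages rest on control 12. It held 34.8 FPKM of Cul3, beside 11 and 10.9 FPKM in controls 10 and 11. For Adnp it held 25.1 FPKM, beside 14 and 13 FPKM. With the replicate block 3 genes were called lower, and 2452 of all genes tested were called in either direction. The median log2 fold change was −0.03 with a range of −0.59 to 0.24, beside a median of 0.02 over all genes tested. Of the 35 genes, 21 were below 0. The SE ranged from 0.0801 to 0.382 with a median of 0.133. The knockdown and control libraries did not overlap for 4 of 35 genes (11.4%), against 35.7% of all genes tested, 17.1% below and 18.6% above control. Setd5 was the one below control, and Kdm5b, Tcf4 and Naa15 were above control without being called.

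Setd5 measured 9.75, 8.24 and 10.4 FPKM in the control libraries and 6.68, 5.78 and 6.69 FPKM in the knockdown libraries of the new set. All 3 knockdown libraries lay below all 3 control libraries. The knockdown mean of 6.38 ± 0.526 FPKM (SD, n = 3) was 67.5% of the control mean of 9.45 ± 1.09 FPKM (SD, n = 3), a log2 fold change of −0.50 (SE 0.119, adjusted p = 0.0421). First-set values of Setd5 were 3.24 and 4.63 FPKM in the control libraries and 3.34 and 4.48 FPKM in the knockdown libraries, and these overlapped, with a change of −0.00 (SE 0.28, adjusted p = 0.997). The joined change was −0.25 (SE 0.128, adjusted p = 0.156), and the difference between the sets was −0.50 (SE 0.255, adjusted p = 0.156). With the replicate number as a block the new-set adjusted p was 0.0186. The call was lost without control 10 (adjusted p = 0.11), control 12 (0.125), knockdown 10 (0.0996), knockdown 11 (0.151) or knockdown 12 (0.0774), and with no filter on low values (0.0759).

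The labels do not say that replicate numbers pair the libraries of the new set. With the number as a block, 2 further genes were called lower there. Of all 11291 genes tested, 2452 were then called, against 1015 without the block. Gigyf1, an adaptor of a complex that holds back translation of bound mRNAs, measured 3.97, 2.19 and 5.64 FPKM in the control libraries and 2.15, 1.61 and 2.75 FPKM in the knockdown libraries. Cnot3, a subunit of the CCR4-NOT deadenylase that shortens mRNA tails, measured 21.4, 16.8 and 27 FPKM in the control libraries and 16.5, 13.3 and 19.2 FPKM in the knockdown libraries. Each knockdown library of both genes was below the control library with its own number, while the groups overlapped. Gigyf1 had a log2 fold change of −0.59 (SE 0.262) with an adjusted p of 0.173 without the block and 0.0326 with it. Cnot3 had a log2 fold change of −0.38 (SE 0.183) with an adjusted p of 0.203 without the block and 0.0228 with it. Control 11 had the lowest control value for 26 of the 36 genes, and without it limma called 2 genes, Setd5 and Gigyf1.

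In the first set most of the risk genes were lower in the knockdown. Of 34 tested genes, 6 were called lower (Tcf20, Ank3, Gigyf2, Spast, Ank2 and Tcf4) and 1 was called higher (Cic). These 7 are 20.6% of the 34, and 23.8% of all 12461 genes tested were called. Called lower were 17.6% of the risk genes against 10.7% of all genes tested, and called higher 2.94% against 13.2%. The median log2 fold change was −0.51, with a range of −1.18 to 0.93, beside −0.15 over all genes tested, and 31 of 34 genes (91.2%) were below 0 against 58% of all. The share of all genes below 0 depended on low values. Among genes averaging at least 5 FPKM it was 68.1% (median −0.291), beside 26 of 27 risk genes (median −0.626). After subtraction of the olfactory receptor level it was 71.4% (median −0.41), beside 32 of 34 risk genes (median −0.722). Knockdown and control did not overlap for 28 of 34 genes (82.4%) beside 67.8% of all genes tested, with 26 below control (76.5% beside 40.4%) and 2 above it, Cic and Cnot3, where 27.4% of all genes were above. As reported, 17 of the 34 had an unadjusted p under 0.05, beside 4884 of all 12461 genes tested. The 7 calls rest on all libraries of the set. Leaving out a library leaves 1 in its group, so only medians are given for those fits. Without control 1, control 2, knockdown 1 or knockdown 2, in that order, the risk genes' median was −0.587, −0.395, −0.44 and −0.548. That of all genes tested was −0.114, −0.108, −0.151 and −0.175.

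The median of the risk genes in the first set lay below that of all genes under each scaling tried, by different amounts. Median-of-ratios rescaling moved the median of all genes in the first set by 0.235, to 0.09, and that of the risk genes to −0.26, with 26 of 34 below 0. Relative to the median of all genes, the risk genes stood at −0.36 as deposited, −0.35 after rescaling and −0.31 after the subtraction of the level of olfactory receptor genes. The risk genes are long, with a median of 7391 bases for the longest annotated transcript against 3296 bases for all genes tested, and after a correction for length and GC content they stood at −0.21. Rescaling left 3 genes called (Tcf20, Ank3 and Cic), and the adjusted p was 0.0667 for Ank2, 0.0806 for Tcf4, 0.0919 for Gigyf2 and 0.102 for Spast. After the length and GC correction Tcf20, Ank2 and Ank3 were called, and the adjusted p was 0.051 for Tcf4, 0.0729 for Cic, 0.101 for Gigyf2 and 0.141 for Spast. With no filter on low values Tcf4, Ank2 and Ank3 were called, and the adjusted p was 0.0513 for Tcf20, 0.0536 for Cic, 0.0755 for Gigyf2 and 0.085 for Spast. Of all genes called in the first set, 55.2% were higher as deposited, 81.6% after rescaling and 30.6% after the subtraction.

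**Figure D1:**
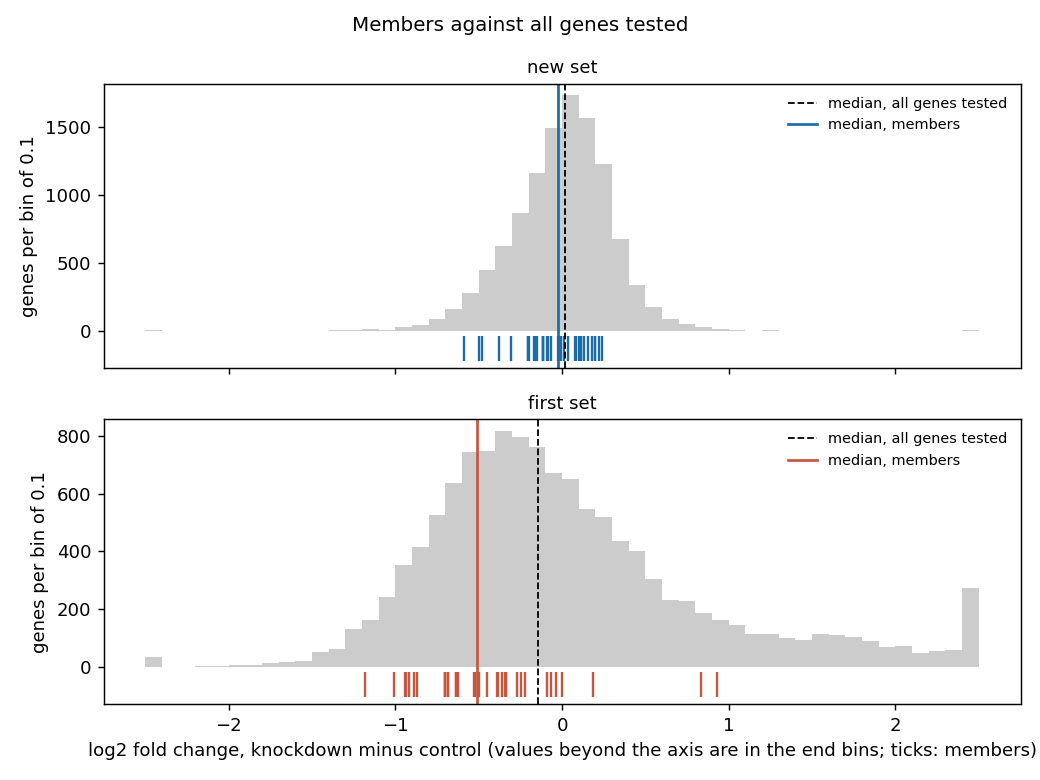
Histograms of the log2 fold change of all genes tested (grey, genes per bin of 0.1), in the new set above and the first set below, with a tick for each risk gene and lines for both medians. The risk genes' median lies near that of all genes in the new set (−0.03 and 0.02) and to its left in the first set (−0.51 and −0.15).

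The joined fit, which averages the changes of both sets, called 11 of 34 genes lower (Kdm6b, Setd2, Foxp1, Tcf20, Tcf4, Ddx3x, Gigyf2, Wac, Ank2, Ank3 and Spast) and 0 higher (32.4%), where 29.9% of all 10827 genes tested were called, 20.5% lower and 9.37% higher. None of these 11 was called in the new set, and for Foxp1, Tcf20, Tcf4, Ank2 and Ank3 the new-set change was above 0. The difference between sets was called for those genes and for Gigyf2 and Spast, so a joined call does not show a fall in both sets. Unadjusted, 15 of the 34 had a p under 0.05, beside 4629 of all 10827 genes tested. The joined median was −0.28 beside −0.11 for all genes, and 30 of 34 were below 0. Of the 10 chromatin proteins, 0 were called in the first set by limma (2 with an unadjusted p under 0.05), where 23.8% of all genes were called, and 2 in the joined fit (20%, against 29.9% of all genes). All 10 were below 0 in the joined fit and in the first set, and 9 of 10 in the new set.

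Kdm6b, which removes repressive methyl marks from histone H3, fell in the joined fit. Its first-set values were 63.8 and 79.1 FPKM in the control libraries and 27.8 and 51.5 FPKM in the knockdown libraries, and its new-set values were 5.2, 5.71 and 4.63 FPKM in the control libraries and 4.43, 4.44 and 5.29 FPKM in the knockdown libraries. The groups did not overlap in the first set and overlapped in the new set. The first-set change was −0.89 (SE 0.31, adjusted p = 0.0765), the new-set change −0.11 (SE 0.122, adjusted p = 0.56) and the joined change −0.50 (SE 0.157, adjusted p = 0.0328). Setd2, which methylates histone H3 behind elongating polymerase, also fell in the joined fit. It measured 10.4 and 10.4 FPKM in the control libraries and 5.34 and 6.71 FPKM in the knockdown libraries of the first set. Its new-set values were 8.32, 5.95 and 7.85 FPKM in the control libraries and 6.34, 6.84 and 6.84 FPKM in the knockdown libraries. Setd2 was lower in each first-set knockdown library, at 58.2% of control, and its new-set libraries overlapped. Its joined change was −0.41 (SE 0.117, adjusted p = 0.023), from set changes of −0.70 (first) and −0.11 (new). The call of Kdm6b was lost without new control 10 (adjusted p = 0.0607), new control 11 (0.0598), new knockdown 10 (0.0661), new knockdown 11 (0.0658), first control 2 (0.109) or first knockdown 1 (0.103). That of Setd2 was lost without new control 10 (0.059), new control 12 (0.0527), new knockdown 10 (0.0575), first control 1 (0.0508) or first knockdown 1 (0.0702). Rescaling ended both (0.0879 and 0.0768), and the length and GC correction that of Kdm6b (0.0612).

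Kdm5b, a demethylase of the histone H3 mark found at active promoters, differed between the sets. It measured 66.6, 55.1 and 62.6 FPKM in the control libraries and 71.2, 70.6 and 69.2 FPKM in the knockdown libraries of the new set, with all knockdown libraries above control. It measured 27 and 34.3 FPKM in the control libraries and 20.8 and 21.8 FPKM in the knockdown libraries of the first set, with both knockdown libraries below control. Its changes of 0.20 and −0.50 were not called in either set (adjusted p = 0.176 and 0.146), and their difference was 0.69 (SE 0.188, adjusted p = 0.0171). The difference was not called after rescaling (0.118) or without first control 2 (0.0518). Ash1l, a histone methyltransferase, measured 7.43, 6.47 and 7.75 FPKM in the control libraries and 6.31, 6.8 and 7.03 FPKM in the knockdown libraries of the new set. The first-set values were 10.6 and 11 FPKM in the control libraries and 6.11 and 8.41 FPKM in the knockdown libraries. It was lower in both first-set knockdown libraries and overlapped in the new set, with a joined change of −0.31 (SE 0.112, adjusted p = 0.0578). Adnp, a zinc finger and homeodomain protein that works with CHD4, measured 14, 13 and 25.1 FPKM in the control libraries and 11.9, 11.4 and 16.9 FPKM in the knockdown libraries of the new set, where control 12 was the highest. Its first-set values were 27.4 and 31 FPKM in the control libraries and 21.6 and 23.3 FPKM in the knockdown libraries, and the joined change was −0.34 (SE 0.176, adjusted p = 0.167). Arid1b (a BAF remodeler subunit), Asxl3 (a Polycomb deubiquitinase cofactor), Mbd5 (a methyl-CpG-binding domain protein) and Pogz (a heterochromatin-associated zinc finger protein) were not called in any comparison, with changes of −0.09, −0.03, −0.15 and −0.02 in the new set. Their first-set changes were −0.34, −0.38, −0.27 and −0.25.

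**Figure D2:**
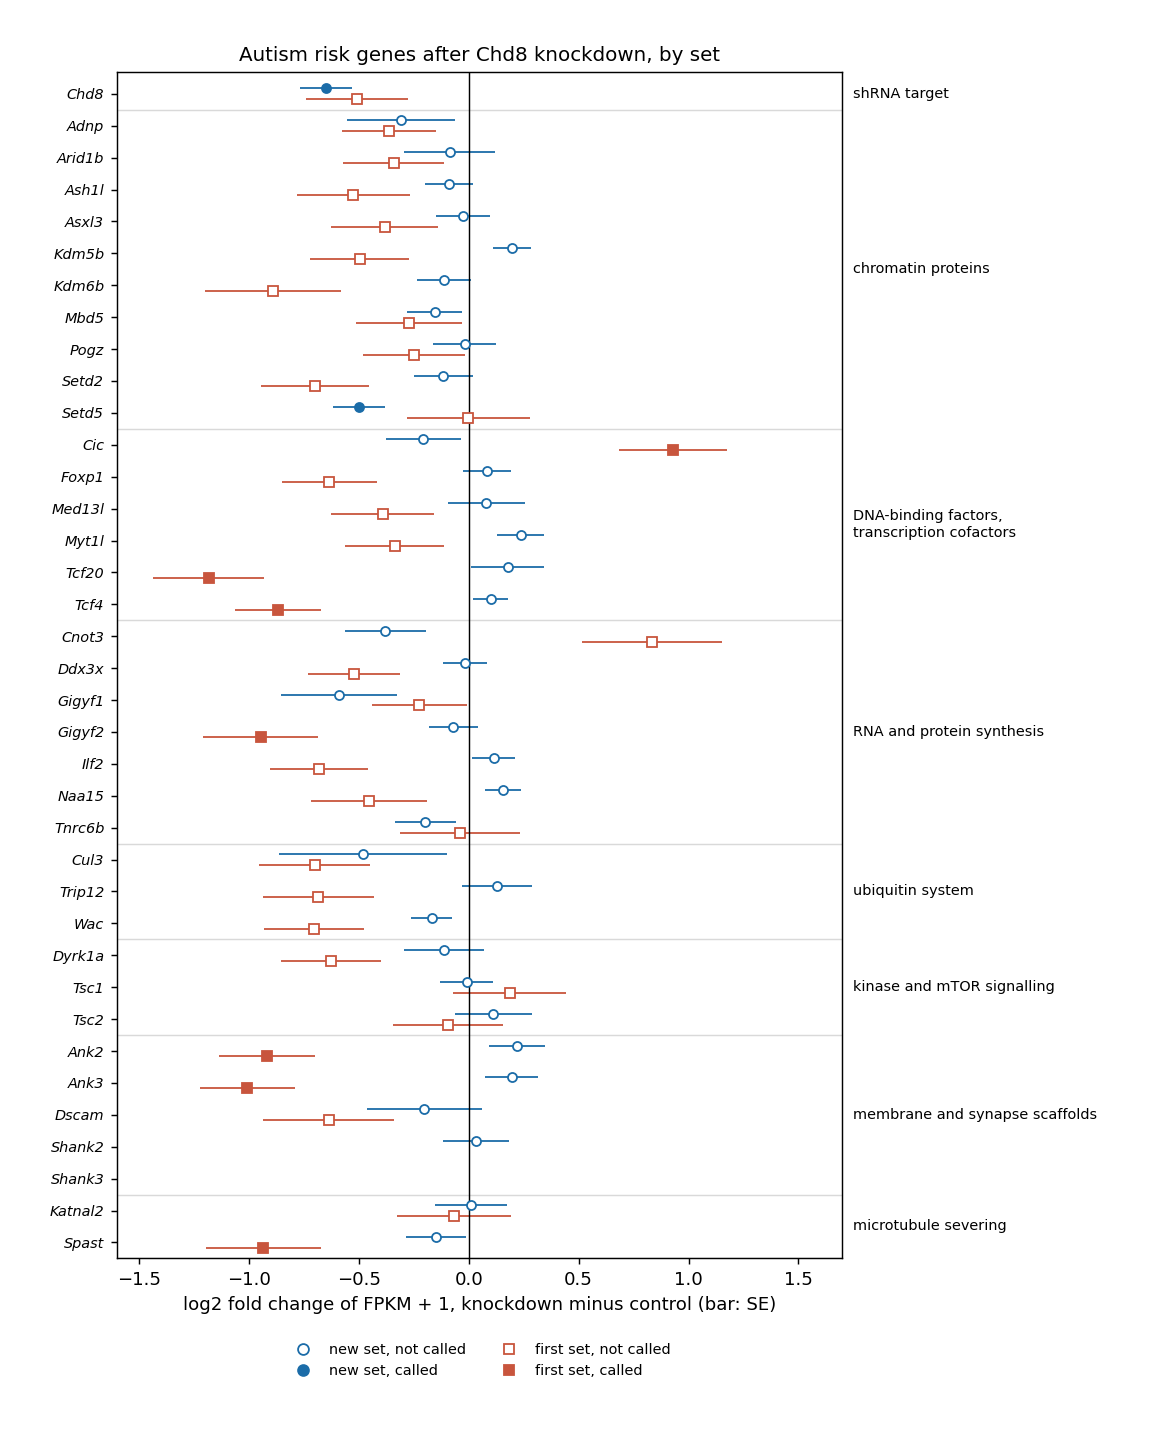
Log2 fold change of FPKM + 1 (knockdown minus control, bar: SE) of Chd8 and each risk gene by role, with circles for the new set and squares for the first set, filled where called. Setd5 is the one risk gene with a filled new-set point, and 31 of 34 first-set points lie left of 0, with Cic, Cnot3 and Tsc1 to the right.

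Among the 6 DNA-binding factors and transcription cofactors, none was called in the new set by limma (0 with an unadjusted p under 0.05), and 2 fell and 1 rose in the first set. Of all genes tested the new set had 8.99% called, and the first set had 10.7% called lower and 13.2% higher. Tcf20, a nuclear cofactor related to the RAI1 protein, had the lowest first-set log2 fold change of the 34 genes. It measured 19.5 and 22.1 FPKM in the control libraries and 7.27 and 10.1 FPKM in the knockdown libraries of the first set, and the knockdown mean of 8.69 ± 2.02 FPKM was 41.8% of the control mean of 20.8 ± 1.88 FPKM (SD, n = 2 each). In the new set it measured 2.73, 1.66 and 1.75 FPKM in the control libraries and 2.05, 2.78 and 2.42 FPKM in the knockdown libraries. The groups were apart in the first set and overlapped in the new set. The first-set change was −1.18 (SE 0.253, adjusted p = 0.0177) and the new-set change 0.18 (SE 0.165, adjusted p = 0.497), and the difference between sets was 1.36 (SE 0.282, adjusted p = 0.00514). The joined change was −0.50 (SE 0.141, adjusted p = 0.0209), a call lost after rescaling (0.0594), after the length and GC correction (0.0622), with a pseudocount of 0.1 (0.0517), and without new knockdown 10 (0.0516), first control 2 (0.0639) or first knockdown 1 (0.0737).

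Tcf4, a basic helix-loop-helix factor that binds E-boxes, measured 242 and 242 FPKM in the control libraries and 141 and 124 FPKM in the knockdown libraries of the first set. New-set libraries gave 153, 156 and 139 FPKM in the control libraries and 159.6, 159 and 161 FPKM in the knockdown libraries. Both first-set knockdown libraries were below control, at a mean of 54.7%, and all 3 new-set knockdown libraries were above control. The first-set change was −0.87 (SE 0.195, adjusted p = 0.0209) and the new-set change 0.10 (SE 0.0801, adjusted p = 0.424). The joined change of −0.38 (SE 0.0814, adjusted p = 0.00609) and the difference of 0.97 (SE 0.163, adjusted p = 0.0021) stayed called under every alternative run. Foxp1, a forkhead repressor expressed in cortical progenitors and neurons, measured 21.7 and 22.1 FPKM in the control libraries and 14.2 and 13.3 FPKM in the knockdown libraries of the first set. The new-set values were 11.7, 10.5 and 10.8 FPKM in the control libraries and 10.6, 11.6 and 13.1 FPKM in the knockdown libraries. It was lower in both first-set knockdown libraries, −0.63 (SE 0.215, adjusted p = 0.0711), and overlapped in the new set, 0.08 (SE 0.108, adjusted p = 0.628). The joined change was −0.28 (SE 0.0953, adjusted p = 0.0484). Rescaling (−0.16, adjusted p = 0.237) and the length and GC correction (−0.11, 0.406) ended this call. With the block its adjusted p was 0.0561, and leaving out any 1 of the 10 libraries ended the call, with adjusted p between 0.0507 and 0.127. The difference between sets for Foxp1 was 0.72 (SE 0.191, adjusted p = 0.0154), and it was not called after rescaling (0.103) or after the length and GC correction (0.144).

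Cic, an HMG-box repressor downstream of receptor tyrosine kinase signalling, was the risk gene called higher in the first set. It measured 2.51 and 2.8 FPKM in the control libraries and 5.99 and 5.91 FPKM in the knockdown libraries there, 2.66 ± 0.206 against 5.95 ± 0.0567 FPKM (SD, n = 2 each), or 224% of control. In the new set it measured 3.13, 2.18 and 3.77 FPKM in the control libraries and 2.64, 2.05 and 2.66 FPKM in the knockdown libraries, and the groups overlapped. The first-set change was 0.93 (SE 0.245, adjusted p = 0.0343), the new-set change −0.21 (SE 0.17, adjusted p = 0.437) and the joined change 0.36 (SE 0.133, adjusted p = 0.0593), and the difference between sets was −1.14 (SE 0.265, adjusted p = 0.00861). The first-set call was lost with no filter on low values (0.0536), after the length and GC correction (0.0729) and after the subtraction of the olfactory receptor level (0.132). Myt1l, a zinc finger factor of postmitotic neurons, measured 27.5, 25.5 and 23 FPKM in the control libraries and 27.4, 29.2 and 33.7 FPKM in the knockdown libraries of the new set. For the first set the values were 63.3 and 53.1 FPKM in the control libraries and 52 and 40.2 FPKM in the knockdown libraries. The groups overlapped in the new set and were apart, knockdown below control, in the first, with changes of 0.24 (SE 0.107, adjusted p = 0.178) and −0.34 (SE 0.226, adjusted p = 0.301). Med13l, a subunit of the Mediator kinase module, measured 6.94, 4.57 and 7.46 FPKM in the control libraries and 6.39, 5.95 and 7.6 FPKM in the knockdown libraries of the new set. Its first-set values were 16.1 and 19.2 FPKM in the control libraries and 12.3 and 14.2 FPKM in the knockdown libraries, with a joined change of −0.16 (SE 0.138, adjusted p = 0.415).

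Promoters of 4 of the 7 genes called in the first set are shown, to give the letters at their start sites. RefSeq promoters (GRCm38.p6) were matched for 28 of the 36 genes. The 250 bases upstream of the start are given for Tcf20, Gigyf2 and Spast, which were called lower, and for Cic, which was called higher. Tcf4 and Ank3 were not matched, Ank2 has several windows in the table and is not shown, and of the windows of Cic the first listed is shown. Capitals mark matches, on either strand, to the motifs searched.
Tcf20, chr15:82912135-82912384, minus strand: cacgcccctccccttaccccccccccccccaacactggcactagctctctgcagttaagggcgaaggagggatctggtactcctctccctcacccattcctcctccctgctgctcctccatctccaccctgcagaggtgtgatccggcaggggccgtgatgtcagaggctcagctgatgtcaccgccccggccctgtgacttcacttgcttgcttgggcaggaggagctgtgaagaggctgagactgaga
Gigyf2, chr1:87326748-87326997, plus strand: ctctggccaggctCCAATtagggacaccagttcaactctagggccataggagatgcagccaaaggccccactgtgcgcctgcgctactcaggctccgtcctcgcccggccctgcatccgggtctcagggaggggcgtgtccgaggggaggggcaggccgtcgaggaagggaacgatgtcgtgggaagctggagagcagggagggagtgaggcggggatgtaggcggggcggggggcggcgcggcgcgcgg
Spast, chr17:74338737-74338986, plus strand: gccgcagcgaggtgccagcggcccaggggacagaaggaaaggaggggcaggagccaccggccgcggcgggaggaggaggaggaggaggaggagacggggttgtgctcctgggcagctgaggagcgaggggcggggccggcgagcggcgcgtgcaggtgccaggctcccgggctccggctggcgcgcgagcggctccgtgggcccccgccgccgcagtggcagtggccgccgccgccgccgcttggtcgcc
Cic, chr7:25267449-25267698, plus strand: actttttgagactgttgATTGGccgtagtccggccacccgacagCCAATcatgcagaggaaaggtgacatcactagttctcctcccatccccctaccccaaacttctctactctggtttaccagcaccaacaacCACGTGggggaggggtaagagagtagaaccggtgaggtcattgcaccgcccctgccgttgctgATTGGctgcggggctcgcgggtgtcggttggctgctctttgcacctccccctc
Capitals are CCAAT or its reverse complement ATTGG in Gigyf2 and Cic, and CACGTG in Cic, and Tcf20 and Spast held no match. Over all 27025 promoters of this length, CCAAT was found in 34.5%, TATAAA in 13%, the ETS motif CCGGAAG in 7.05%, the E-box CACGTG in 6.05%, the YY1 motif AAGATGGC in 1.59% and the NRF1 motif GCGCATGCG in 1.49%. Of the 28 matched risk genes, CCAAT was found in 8 (28.6%), TATAAA in 1 (3.57%), CCGGAAG in 3 (10.7%), CACGTG in 2 (7.14%), and AAGATGGC and GCGCATGCG in 0. The median GC content was 63.4% in the 28 promoters and 52% in all, and the ratio of observed to expected CpG was 0.842 and 0.378. The 27025 promoters were not limited to genes expressed in these libraries, and a comparison with expressed genes alone was not made. A match describes letters in this window and not a binding site.

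Of the 7 genes of RNA metabolism and protein synthesis, none was called in the new set by limma (0 with an unadjusted p under 0.05), and Gigyf2 fell in the first set (14.3% of the 7, against 23.8% of all genes). Gigyf2, which with a cap-binding protein holds back translation, measured 16.3 and 16.1 FPKM in the control libraries and 6.52 and 9.62 FPKM in the knockdown libraries of the first set, 49.8% of control. For the new set the values were 11.9, 9.73 and 9.61 FPKM in the control libraries and 10.4, 9.63 and 9.5 FPKM in the knockdown libraries. The first-set groups were apart and the new-set groups overlapped. Its first-set change was −0.95 (SE 0.262, adjusted p = 0.0401) and the new-set change −0.07 (SE 0.113, adjusted p = 0.705). The joined change of −0.51 (SE 0.119, adjusted p = 0.00962) stayed called under every alternative run, and the difference of 0.88 (SE 0.239, adjusted p = 0.0174) was not called after rescaling (0.0676) or the length and GC correction (0.0504). Its paralog Gigyf1 measured 47.8 and 60.1 FPKM in the control libraries and 43.5 and 48.1 FPKM in the knockdown libraries of the first set, where the groups overlapped, with a change of −0.22 (SE 0.215, adjusted p = 0.467). The joined change of Gigyf1 was −0.41 (SE 0.189, adjusted p = 0.122). Ddx3x, an RNA helicase of translation initiation, measured 55.5 and 63.9 FPKM in the control libraries and 38.4 and 44.2 FPKM in the knockdown libraries of the first set. For the new set the values were 93.1, 83.4 and 82 FPKM in the control libraries and 95.4, 79.8 and 80.7 FPKM in the knockdown libraries. It was below control in the first set and overlapped in the new set, and the joined change of −0.27 (SE 0.0938, adjusted p = 0.0494) lay at the threshold. That call was lost without new control 10 (0.11), new control 11 (0.0571), new control 12 (0.0708), new knockdown 11 (0.112), new knockdown 12 (0.106), first control 2 (0.129) or first knockdown 1 (0.137), and in 5 other alternatives, among them rescaling (0.239) and the length and GC correction (0.474). Reads of Ddx3x may be shared with genes of similar sequence, which would make its values uncertain, and this was not tested.

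Ilf2, which takes part in RNA metabolism, had the highest mean FPKM of the risk genes over the 10 libraries. It measured 228, 252 and 211 FPKM in the control libraries and 253, 259 and 234 FPKM in the knockdown libraries of the new set. First-set libraries gave 432 and 331 FPKM in the control libraries and 252 and 219 FPKM in the knockdown libraries. The groups overlapped in the new set and did not in the first. Its changes of 0.11 and −0.68 were not called (adjusted p = 0.452 and 0.0632), and the difference was 0.80 (SE 0.207, adjusted p = 0.0143), not called after rescaling (0.0928). Cnot3 went the other way in the first set, at 7.18 and 4.99 FPKM in the control libraries and 14.8 and 8.85 FPKM in the knockdown libraries. Both knockdown libraries of Cnot3 were above both control libraries there, with a change of 0.83 (SE 0.318, adjusted p = 0.0974), and its difference between sets was −1.21 (SE 0.354, adjusted p = 0.0235). That difference was not called without new knockdown 11 (0.0531), first control 2 (0.0888) or first knockdown 1 (0.0893). Naa15, the ribosome-anchoring subunit of an N-terminal acetyltransferase, measured 25.3, 23.4 and 22.2 FPKM in the control libraries and 26.7, 26.5 and 26.2 FPKM in the knockdown libraries of the new set. The first-set values were 12.7 and 18.3 FPKM in the control libraries and 10 and 11.8 FPKM in the knockdown libraries. All new-set knockdown libraries of Naa15 were above control and all first-set ones below, and its difference of 0.61 (SE 0.221, adjusted p = 0.0541) was not called. Tnrc6b, a microRNA effector protein, had changes of −0.20 and −0.04 and was not called in any comparison.

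The 3 genes of the ubiquitin system had first-set changes close to each other, with a median of −0.70, and none was called in that set by limma. All 3 had an unadjusted p under 0.05, as did 4884 of all 12461 genes tested there, of which 23.8% were called. Wac, an adaptor of histone H2B ubiquitination, measured 27.4 and 29.3 FPKM in the control libraries and 15 and 19.3 FPKM in the knockdown libraries of the first set. Its new-set values were 52.2, 45.4 and 53.1 FPKM in the control libraries and 41.9, 43.9 and 48 FPKM in the knockdown libraries. The first-set groups were apart and the new-set groups overlapped. Its joined change of −0.44 (SE 0.0979, adjusted p = 0.00783) stayed called under every alternative run, from a first-set change of −0.70 (SE 0.228, adjusted p = 0.0626) and a new-set change of −0.17 (SE 0.0933, adjusted p = 0.259). Trip12, a HECT ubiquitin ligase, measured 14.3 and 17.6 FPKM in the control libraries and 8.34 and 10.8 FPKM in the knockdown libraries of the first set. New-set libraries gave 13.8, 9.02 and 12.9 FPKM in the control libraries and 13.2, 11.5 and 14.2 FPKM in the knockdown libraries. Its first-set groups were apart and its new-set groups overlapped, and the difference between sets was 0.81 (SE 0.275, adjusted p = 0.0414). That call was lost after rescaling (0.156) and without new control 11 (0.0682), new control 12 (0.0505), new knockdown 10 (0.081), new knockdown 12 (0.088), first control 2 (0.13) or first knockdown 1 (0.125). Cul3, the scaffold of a family of cullin-RING ligases, measured 11, 10.9 and 34.8 FPKM in the control libraries and 10.6, 12.6 and 11 FPKM in the knockdown libraries of the new set. Control 12 stood far above the other 5 libraries. Its first-set values were 20 and 27.9 FPKM in the control libraries and 13 and 15.4 FPKM in the knockdown libraries, apart by group, and the joined change was −0.59 (SE 0.271, adjusted p = 0.118).

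**Figure D3:**
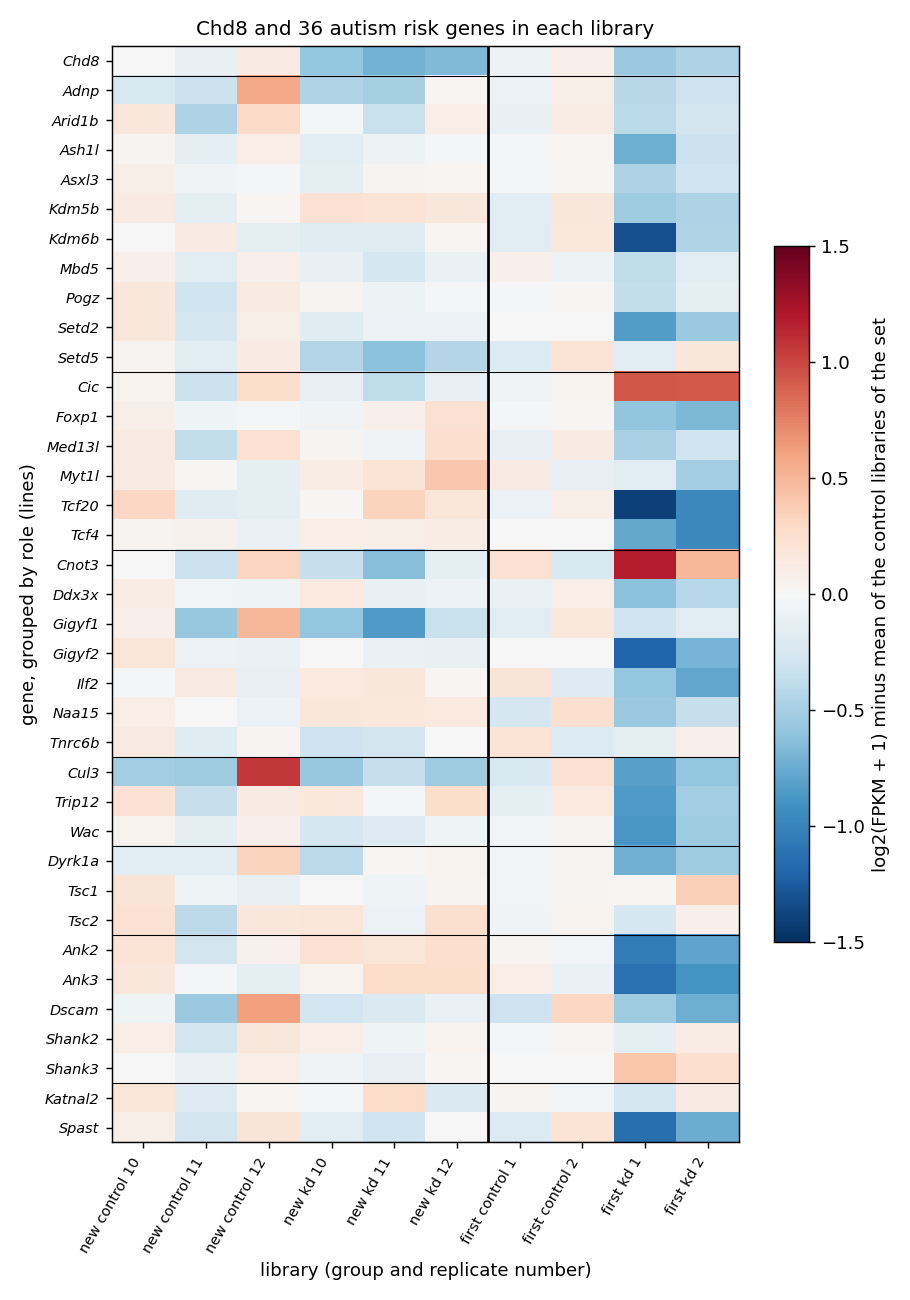
Colour gives log2(FPKM + 1) of each gene in each library minus the mean of the control libraries of its set, with genes by role in the vertical direction and the 10 libraries along the horizontal. Both first-set knockdown columns are blue for most genes, with medians of −0.53 and −0.38 over the risk genes, and new control 11 has a median of −0.17.

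The 3 genes of kinase and growth signalling were not called in any comparison by limma, and 1 had an unadjusted p under 0.05 in the first set. Of all 12461 genes tested there, 23.8% were called and 4884 had an unadjusted p under 0.05. Dyrk1a, a kinase that acts on cell cycle exit, measured 6.3, 6.38 and 9.37 FPKM in the control libraries and 5.21, 7.36 and 7.51 FPKM in the knockdown libraries of the new set. For the first set the values were 17.2 and 18.4 FPKM in the control libraries and 10.4 and 12.1 FPKM in the knockdown libraries, apart by group there, with a joined change of −0.37 (SE 0.139, adjusted p = 0.0651). Tsc1, which with Tsc2 restrains mTORC1, measured 6.77, 5.5 and 5.28 FPKM in the control libraries and 5.8, 5.53 and 6.01 FPKM in the knockdown libraries of the new set. Its first-set values were 2.53 and 2.76 FPKM in the control libraries and 2.69 and 3.66 FPKM in the knockdown libraries, and its joined change was 0.09 (SE 0.116, adjusted p = 0.588). Tsc2 had changes of 0.11 and −0.09.

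The ankyrins Ank2 and Ank3, which tie membrane proteins to the spectrin skeleton of axons, fell in the first set and were not called in the new set. Ank3 measured 47 and 41.1 FPKM in the control libraries and 19.6 and 23.2 FPKM in the knockdown libraries of the first set, 48.7% of control. Its new-set values were 11.4, 9.85 and 9.01 FPKM in the control libraries and 10.4, 12.4 and 12.3 FPKM in the knockdown libraries. Ank2 measured 33.9 and 31.8 FPKM in the control libraries and 15.4 and 18.6 FPKM in the knockdown libraries of the first set, 51.6% of control. New-set libraries gave 20, 14.1 and 18 FPKM in the control libraries and 20.4, 19.5 and 20.6 FPKM in the knockdown libraries. Both were apart by group in the first set and overlapped in the new set. The first-set changes were −1.01 (SE 0.216, adjusted p = 0.0178) for Ank3 and −0.92 (SE 0.218, adjusted p = 0.0252) for Ank2. The new-set changes were 0.19 (SE 0.12, adjusted p = 0.302) and 0.22 (SE 0.127, adjusted p = 0.275). The differences between sets, 1.20 (SE 0.212, adjusted p = 0.00255) for Ank3 and 1.14 (SE 0.219, adjusted p = 0.00375) for Ank2, stayed called under every alternative run. The joined changes were −0.41 (SE 0.106, adjusted p = 0.0157) for Ank3 and −0.35 (SE 0.11, adjusted p = 0.0327) for Ank2. Rescaling ended both joined calls (0.0597 and 0.129) and the length and GC correction that of Ank3 (0.0617). That of Ank2 was also lost without new control 10 (0.0777), new control 12 (0.0688), new knockdown 10 (0.0658), 11 (0.0703) or 12 (0.0591), first control 1 (0.0801), first control 2 (0.052) or first knockdown 1 (0.1).

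Dscam, a cell adhesion molecule of neurites, measured 3.39, 2.13 and 6.06 FPKM in the control libraries and 2.76, 2.96 and 3.28 FPKM in the knockdown libraries of the new set. First-set libraries gave 4.72 and 7.79 FPKM in the control libraries and 3.89 and 3.26 FPKM in the knockdown libraries. New control 12 was the highest of its set, and the first-set groups were apart. Its joined change was −0.42 (SE 0.207, adjusted p = 0.144). Shank2, a scaffold of excitatory synapses, had the lowest mean FPKM among the genes tested in a set. It measured 1.41, 0.859 and 1.53 FPKM in the control libraries and 1.42, 1.15 and 1.34 FPKM in the knockdown libraries of the new set, with a change of 0.03 (SE 0.15, adjusted p = 0.901), and 0.514 and 0.542 against 0.381 and 0.65 FPKM in the first set, where it was not tested. Shank3, a related scaffold, stayed under 0.5 FPKM in all 10 libraries, at 0.25, 0.165 and 0.335 FPKM in the control libraries and 0.203, 0.149 and 0.258 FPKM in the knockdown libraries of the new set. Its first-set values were 0.111 and 0.108 FPKM in control and 0.481 and 0.325 FPKM in knockdown libraries, and it was not tested.

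Of the 2 microtubule-severing enzymes, Spast fell in the first set and Katnal2 was not called in any comparison. Spast, the spastin ATPase, measured 19.9 and 27 FPKM in the control libraries and 10.1 and 13.4 FPKM in the knockdown libraries of the first set, 50.2% of control. The new-set values were 41.7, 32.3 and 45.1 FPKM in the control libraries and 35.2, 31.7 and 39.5 FPKM in the knockdown libraries. The first-set groups were apart and the new-set groups overlapped. The first-set change was −0.94 (SE 0.262, adjusted p = 0.0416), the new-set change −0.15 (SE 0.137, adjusted p = 0.486) and the joined change −0.54 (SE 0.133, adjusted p = 0.0118), and the joined call held under every alternative run. The difference between sets was 0.79 (SE 0.267, adjusted p = 0.0425). That difference was lost without new control 10 (0.0589), new control 11 (0.0814), new knockdown 10 (0.0772), new knockdown 12 (0.0914), first control 2 (0.151) or first knockdown 1 (0.137), after rescaling (0.171), after the length and GC correction (0.215), with a pseudocount of 5 (0.0576) and without the trend in limma's variance (0.0503). Katnal2, a katanin-like protein, measured 1.78, 1.16 and 1.49 FPKM in the control libraries and 1.42, 1.97 and 1.13 FPKM in the knockdown libraries of the new set. The first-set values were 2.89 and 2.67 FPKM in the control libraries and 2.15 and 3.13 FPKM in the knockdown libraries, with groups that overlapped in both and a joined change of −0.03 (SE 0.139, adjusted p = 0.893).

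**Figure D4:**
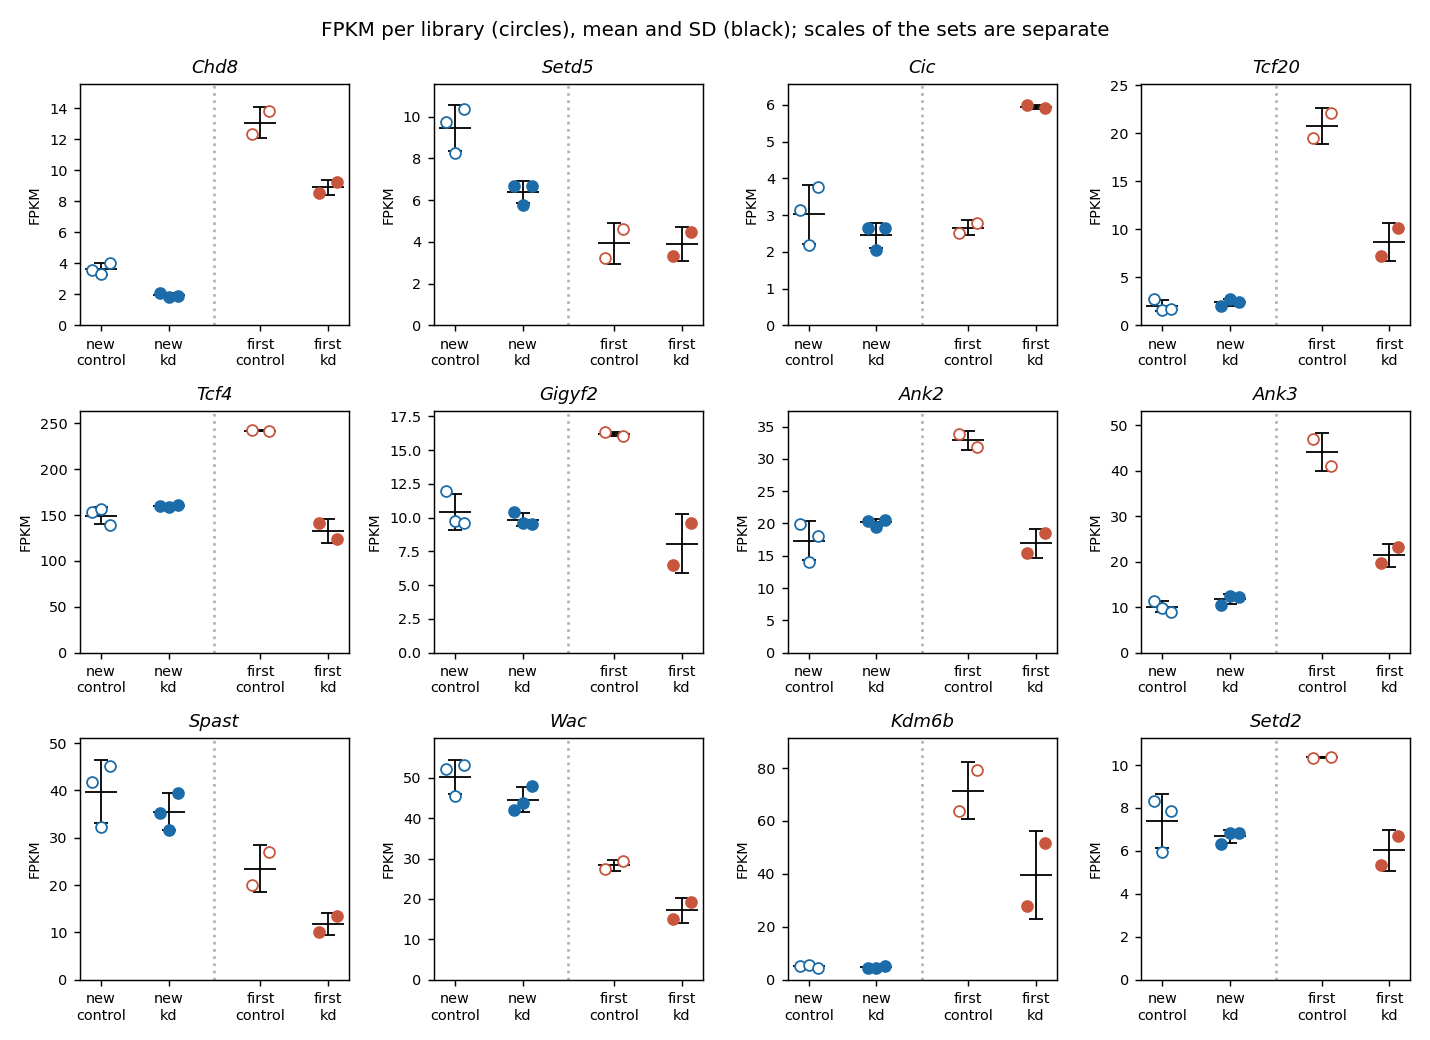
FPKM per library (circles, open for control and filled for knockdown) with mean and SD of Chd8 and 11 risk genes, new set left and first set right of the dotted line, each on a linear axis from 0; kd is knockdown. Setd5 is lower in the new set, Cic is higher in the first set, and the other 9 risk genes shown lie below control in the first set.

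No risk gene was called in both sets. By the sign of the change alone, of the 34 genes tested in both, 18 were below 0 in both sets, 0 were above 0 in both, 13 were above 0 in the new set and below it in the first, and 3 were the reverse. The signs of uncalled genes are not firm, and 14 of 34 uncalled new-set genes changed sign in at least 1 alternative. A test of the difference called 12 of 34 genes (35.3%), against 32.5% of all genes tested. New-set changes were higher for 10 (Kdm5b, Foxp1, Tcf20, Tcf4, Gigyf2, Ilf2, Trip12, Ank2, Ank3 and Spast) and lower for 2 (Cic and Cnot3). These are 29.4% and 5.88%, where 22.5% and 9.98% of all genes tested were called in those directions. The median difference was 0.49 beside 0.23 for all genes tested. Over all genes tested, the replicate block called 3908 in the difference (3520 without it) and 3695 in the joined fit (3238 without it). With this block, whose pairing the labels do not give, the difference was also called for Naa15 (adjusted p = 0.0278), Ddx3x (0.0245), Wac (0.0394) and Kdm6b (0.0401). In the joined fit the block also called Adnp (0.0269), Gigyf1 (0.0268), Dyrk1a (0.0322) and Ilf2 (0.0232) lower and Cic (0.0324) higher.

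Markers of cortical neurons were called in opposite directions in the sets. Among all genes tested, new-set calls were 5.15% lower and 3.84% higher. First-set calls were 10.7% lower and 13.2% higher, or 23.8% in either direction. The neuron markers called in that set were 26.7% of the 15, all of them lower. Markers of radial glia, intermediate progenitors and cortical neurons were present in all groups. The summed FPKM of 15 radial glia markers was 1475 to 1894 in new-set control and 1191 to 1769 in new-set knockdown libraries, with 9 of 15 called lower, and 1926 to 1972 and 1087 to 2263 in the first set, with 4 called lower. Markers of postmitotic neurons summed to 2568 to 3043 FPKM in new-set control and 3623 to 4442 FPKM in new-set knockdown libraries, with 7 of 15 called higher. First-set sums were 4916 to 5374 and 3414 to 3679 FPKM, with 4 of 15 called lower, 11 not called and 4 above 0. Nefl (1.18) and Nefm (0.52) were above 0 there without being called, and both were called higher in the joined fit, where Bcl11b and Dcx were called lower. For intermediate progenitors the sum of 9 markers was 989 to 1157 against 709 to 777 FPKM in the new set (4 called lower), with first-set sums of 745 to 794 against 655 to 1090 FPKM (2 higher, 4 lower). Of 10 proliferation genes, the new set had 3 called lower (30%, against 5.15% of all genes) and the first set 6 (60%, against 10.7%). The 10 immediate early genes, which respond within minutes to stimulation or handling of cells, summed to 174 to 202 FPKM in new-set control and 133 to 145 FPKM in new-set knockdown libraries, and 2 of 7 tested were called lower. First-set sums were 39.95 FPKM in both control libraries and 331 to 386 FPKM in the knockdown libraries, and all 10 were called higher. Markers of microglia summed to 2.62 to 7.69 against 1.53 to 5.16 FPKM in the new set (0 of 2 tested called by limma, 1 with an unadjusted p under 0.05), and to 1.52 to 5.96 against 10.7 to 24.5 FPKM in the first set, with 3 of 6 tested called higher. GABAergic interneuron markers summed to 18.6 to 27.6 against 9.18 to 9.29 FPKM in the new set (5 of 5 tested called lower), with first-set sums of 22.9 to 44.6 against 18.1 to 46.3 FPKM (0 of 8 called by limma, 1 with an unadjusted p under 0.05). Erythroid genes summed to 149.5 to 280 against 23.6 to 115 FPKM in the new set (2 of 5 tested called lower, median log2 fold change −2.07), with first-set sums of 16.6 to 19.0 against 1.41 to 43.3 FPKM and Hbb-bh1 at 0 in all libraries of 3 of the 4 groups. The 7 endothelial and pericyte markers summed to 2.58 to 2.84 against 1.34 to 2.83 FPKM in the new set, with first-set sums of 11.1 to 16.4 against 11.1 to 13.1 FPKM. The 6 meningeal and choroid plexus markers summed to at most 1.95 FPKM in 3 of the 4 groups and to between 0.706 and 45.0 FPKM in new-set knockdown libraries. The part of these cell types in the results on the risk genes was not tested.

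The other autism risk genes of a wider list, 76 in the tables and none of them among the 36, were counted in the same way. In the new set 3 rose and 3 fell of 69 tested (8.7% called, against 8.99% of all genes), with a median of −0.02 beside 0.02 for all. In the first set 0 rose and 10 fell of 67 tested (14.9% called, against 23.8% of all genes), with a median of −0.47 beside −0.15 for all. There 54 of 67 (80.6%) were below 0, against 58% of all. The joined fit called 1 higher and 22 lower of 66 (34.8%, against 29.9% of all genes), and the difference between sets was called for 29 (43.9%, against 32.5%), with the new set higher for 26 and lower for 3. Dpysl2, a tubulin-binding protein of growing axons, had new-set means of 62.6 ± 1.53 FPKM in control and 83.3 ± 1.64 FPKM in knockdown (SD, n = 3 each), a rise of 0.41 (adjusted p = 0.0203). In the first set its means were 4018 ± 142 and 1176 ± 255 FPKM (SD, n = 2 each), a change of −1.79 (adjusted p = 0.00369). Taok1, a kinase that phosphorylates MAP kinase kinases, had a new-set change of 0.06 and a first-set change of −1.74 (adjusted p = 0.00402 for the latter). Tnrc6c, a relative of Tnrc6b, had changes of −0.11 and −1.24, and Tm9sf4, a transmembrane 9 family protein, by −0.21 and −0.95, and both were called lower in the joined fit.

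Annotated exons of 17 of the 36 genes overlap exons of another gene. For 6 of them (Ash1l with Dap3, Cnot3 with Leng1, Gigyf2 with Kcnj13, Ilf2 with Snapin, Mbd5 with Orc4 and Tsc2 with Pkd1) the other is a protein-coding gene on the opposite strand. Whether fragments were counted by strand is not given in the sources used here, so the fragments of such pairs cannot be told apart and these values are uncertain.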

How the data were processed

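Per the labels' protocols, the libraries were built from total RNA with a low-input kit. Alignment and quantification used TopHat2, Bowtie, Cufflinks 2.0.0, Cuffdiff and build mm9, per the submitters' processing notes. Annotation, filters and strand handling: not given in the sources used here. The authors deposited FPKM, 1 column per library, in a table for each set. Fold changes were taken within a table from log2(FPKM + 1) with limma 3.58.1 in R 4.3.3 (trend, two-sided; residual degrees of freedom: new 4, first 2, joined 6), checked on simulated data. The joined fit averages the set changes, and a second contrast subtracts them. Both contrasts use 1 residual variance per gene, shared by the sets, so their SE can be too small where the first set varied more. Replicates are separate embryo pools, per the series' design text. Same-numbered new-set libraries deviated together weakly (r = 0.122, 0.242 and 0.193 across genes), and first-set libraries did not (r = −0.0285 for both pairs). New-set control and knockdown libraries with different numbers had r from −0.162 to −0.0133. The labels do not say that numbers pair libraries, so the main fits used no block, and the block was run as an alternative. The risk genes and lists were chosen with earlier results of these data known. Values by library are printed for Chd8, each called risk gene, the risk genes with the highest and lowest mean FPKM, and up to 2 others per role by joined p. Of other lists, up to 4 genes by joined p were considered. Overlapping exons and lengths come from GENCODE M21. Alternatives changed the pseudocount (0.1, 5), the filter (none, at least 5 FPKM), the scaling, the background, the trend, the replicate block and the libraries. The length and GC correction (loess span 0.3) and a trimmed background subtraction were chosen after seeing the data.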

Additional observations from a re-analysis of the deposited data

Results flagged for a closer look

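For 12 of the 34 risk genes tested in both sets, limma's test of the difference itself separated the new-set from the first-set log2 fold change. Values are new-set minus first-set log2 fold changes. The new-set change was higher for 10 genes, in the order of the difference: Tcf20 (1.36, SE 0.282, adjusted p = 0.00514), Ank3 (1.20, SE 0.212, adjusted p = 0.00255), Ank2 (1.14, SE 0.219, adjusted p = 0.00375), Tcf4 (0.97, SE 0.163, adjusted p = 0.0021), Gigyf2 (0.88, SE 0.239, adjusted p = 0.0174), Trip12 (0.81, SE 0.275, adjusted p = 0.0414), Ilf2 (0.80, SE 0.207, adjusted p = 0.0143), Spast (0.79, SE 0.267, adjusted p = 0.0425), Foxp1 (0.72, SE 0.191, adjusted p = 0.0154) and Kdm5b (0.69, SE 0.188, adjusted p = 0.0171). It was lower for Cic (−1.14, SE 0.265, adjusted p = 0.00861) and Cnot3 (−1.21, SE 0.354, adjusted p = 0.0235). A difference was called for 32.5% of all genes tested, so the share of 35.3% among the risk genes is near that background. Cic, Tcf20, Tcf4, Ank2 and Ank3 passed in every alternative run.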

How the results depend on the processing

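No called risk gene changed direction under any alternative. Of 31 calls over the 4 comparisons, 9 passed in every alternative and 22 were lost in at least 1. Median-of-ratios rescaling gave 5 calls in the joined fit (11 as reported), 6 in the difference (12 as reported) and 3 in the first set (7 as reported), and subtraction of the olfactory receptor level gave 18 joined and 19 for the difference. Over all genes tested, rescaling gave 2671 joined calls (3238 as reported), 2735 for the difference (3520) and 2521 in the first set (2971). Subtraction gave 4219 joined and 4205 for the difference over all genes. In the first set, no filter on low values and the length and GC correction each left 3, where 2668 and 2440 of all genes were called. No filter left 0 of 36 new-set genes called by limma, with 2 at an unadjusted p under 0.05, and 470 of all genes called. Leaving out 1 new-set library gave 0 to 2 new-set calls, beside 88 to 1883 of all genes tested (1015 as reported). A fit without a first-set library leaves 1 library in that group, so no count is given for it. Chd8 changed by −0.70 to −0.59 in the new set when 1 library was left out.

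With the replicate block, 3 new-set, 9 first-set, 15 joined and 16 difference calls were made. Over all genes tested the block made 2452, 2719, 3695 and 3908 calls in that order, against 1015, 2971, 3238 and 3520 without it. Kdm6b (adjusted p = 0.0427) and Ilf2 (0.046) were added in the first set, whose numbers are not shown to pair libraries.

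Among uncalled genes, 14 of 34 (new set) and 7 of 27 (first set) changed sign in at least 1 alternative. Of all genes called, the share higher went from 55.2% of 2971 in the first set to 81.6% of 2521 with rescaling, and in the joined fit from 31.3% of 3238 to 54.6% of 2671. With 2 libraries per group and no counts, the depth limits on first-set changes are unknown.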

Other observations

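Control levels of some risk genes lay far apart in the tables, which were made separately, so the levels were not tested against each other. Gigyf1 had a control mean of 3.93 FPKM in the new set and 54 FPKM in the first set, while Gigyf2 had 10.4 and 16.2 FPKM. Kdm6b had 5.18 and 71.4 FPKM, and Tcf20 had 2.05 and 20.8 FPKM. Cnot3 lay the other way, with 21.7 FPKM in the new set and 6.08 FPKM in the first set, as did Setd5, with 9.45 and 3.93 FPKM.

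Single libraries held many of the extreme values. New control 11 had the lowest control value of 26 of the 36 genes and new knockdown 12 the highest knockdown value of 23. In the first set, knockdown 1 was the lower knockdown library for 28 genes and control 1 the lower control library for 25.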
